A study of Mus musculus with 48 samples.

Results

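The genes described here encode the nuclear part of mitochondrial oxidative phosphorylation in stromal cells of mouse lymph nodes (LNs). They were taken from the probe annotation of the array by symbol, as every gene beginning with Nduf followed by a, b, s, v or c, with Sdh followed by a, b, c or d, or with Uqcr, Cox4i, Cox5, Cox6, Cox7, Cox8 or Atp5, together with Cyc1 and Cycs and without pseudogenes. This rule used no measured value and gave 92 of the 19057 genes that had a probe of 1 gene symbol. A gene was represented by its brightest probe, and 87 of the 92 had a probe above the background level in at least 1 group. The background level was a log2 value of 5.57, set 3 robust SDs above the most frequent value of all probes. Cox7b2, Cox8c, Ndufaf6, Ndufs1 and Sdha had no probe above it and were not tested.

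Fibroblastic reticular cells (FRCs, CD31- gp38+), blood endothelial cells (BECs, CD31+ gp38-), lymphatic endothelial cells (LECs, CD31+ gp38+) and double-negative cells (DN, CD31- gp38-) were sorted from skin-draining LNs of naive wild-type mice and of mice that had received Eμ-Myc lymphoma B cells intravenously. The methods name young adult C57BL/6N mice of both sexes as hosts, so the Myc transgene was carried by the transferred lymphoma cells and not by the stroma. Each host received 200000 to 400000 lymphoma cells, and the mean tumor load in the LNs was 4 to 10% of lymphocytes. Leukocytes had been depleted with CD45 beads, and the sort excluded CD45+, Ter119+ and dead cells. There were 3 biological replicates in all 8 groups, and every replicate was run on 2 strips of an Illumina bead array from 80 ng of RNA pooled from 4 to 6 sorts. The p-values given below therefore measure the spread between such pools. Each cell type lay on 1 slide of its own, with naive and tumor samples on different places of it, so cell type and slide, and state and place, cannot be told apart.

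In the inner mitochondrial membrane, complex I (NADH dehydrogenase) and complex II (succinate dehydrogenase) pass electrons to coenzyme Q, complex III passes them to cytochrome c, and complex IV (cytochrome c oxidase) passes them to oxygen. The proton gradient built on the way drives ATP synthase, whose F1 part makes ATP and whose Fo part lets protons through. Most subunits are encoded in the nucleus and a few of the core ones in mitochondrial DNA. Complex IV has paired isoforms of several small subunits, of which one is found in most tissues and the other in muscle, testis or lung.

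Defining markers were highest in the matching sorts, with Pecam1 between 14.18 and 14.88 in BECs (log2 level of each of 6 replicates) and the summed level of 12 fibroblast markers between 17.36 and 17.80 in FRCs. The DN cells had no endothelial or fibroblast signal of that size, and the summed level of 12 pericyte and smooth muscle markers was 15.89 to 16.62 in them and 15.87 to 16.50 in FRCs. Pdpn, which encodes gp38, was between 14.02 and 14.87 in FRCs and LECs. In cells sorted as gp38- it was 8.12 to 11.51 in BECs and 9.75 to 13.43 in DN. Its highest DN values were in naive replicate 2 (13.43) and tumor replicate 3 (12.38). Pecam1 in DN, sorted as CD31-, was 5.74 to 9.15 in naive and 10.57 to 11.11 in tumor replicates. Of 5 epithelial and Schwann cell markers, Krt8, Krt18 and Mbp had their highest naive means in DN (14.58, 13.76 and 12.68). The others, Krt5 and Krt14, were highest in naive FRCs (9.88 and 14.79). Some arrays stood apart. In tumor LEC replicates 1 and 2 the pancreatic acinar gene Cela2a was at 15.63 and 13.79, compared with 5.30 in tumor LEC replicate 3. Naive DN replicate 2 had a summed fibroblast level of 16.74 against 15.44 and 15.28 in the other two and a summed lymphatic level of 15.49 against 12.43 and 12.80. Skeletal muscle markers behaved in the opposite way in these 3 arrays, at 9.11 in replicate 2 against 13.57 and 13.14. The main counts that rest on naive DN samples are given with and without this array. Tumor DN replicate 3 had a summed fibroblast level of 16.38 against 15.15 and 15.53 in the other tumor DN replicates. Its summed lymphatic level was 14.48 against 12.88 and 12.87. In bulk samples of this kind, a change in the cells that make up a sort and a change in RNA per cell cannot be told apart.

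Among naive mice, the respiratory genes were highest in DN cells. The level differed among the 4 cell types for 68 of the 87 genes (78.2%; limma F-test, Benjamini-Hochberg adjusted p under 0.05), beside 68.3% of all 13344 genes tested. The mean was highest in DN for 76 genes (87.4%), beside 31.9% of all genes, whereas 7 were highest in BECs, 3 in LECs and 1 in FRCs. In pairs, 63 genes (72.4%) were higher in DN than in FRCs, 57 (65.5%) higher than in BECs and 52 (59.8%) higher than in LECs, where 19.9%, 27.0% and 22.5% of all genes were. The median over the 87 genes was -0.73 for FRC minus DN on the log2 scale, -0.65 for BEC minus DN and -0.53 for LEC minus DN, and over all genes it lay between -0.05 and -0.02. These 3 comparisons share the same DN samples, and without naive DN replicate 2 the medians were -0.89, -0.84 and -0.71. The other 3 cell types lay close together, with medians of -0.04 for FRC minus BEC, -0.14 for FRC minus LEC and -0.15 for BEC minus LEC. Lower levels in DN passed the test for Cox6b2, against FRCs, and for Sdhaf2, against BECs.

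**Figure D1:**
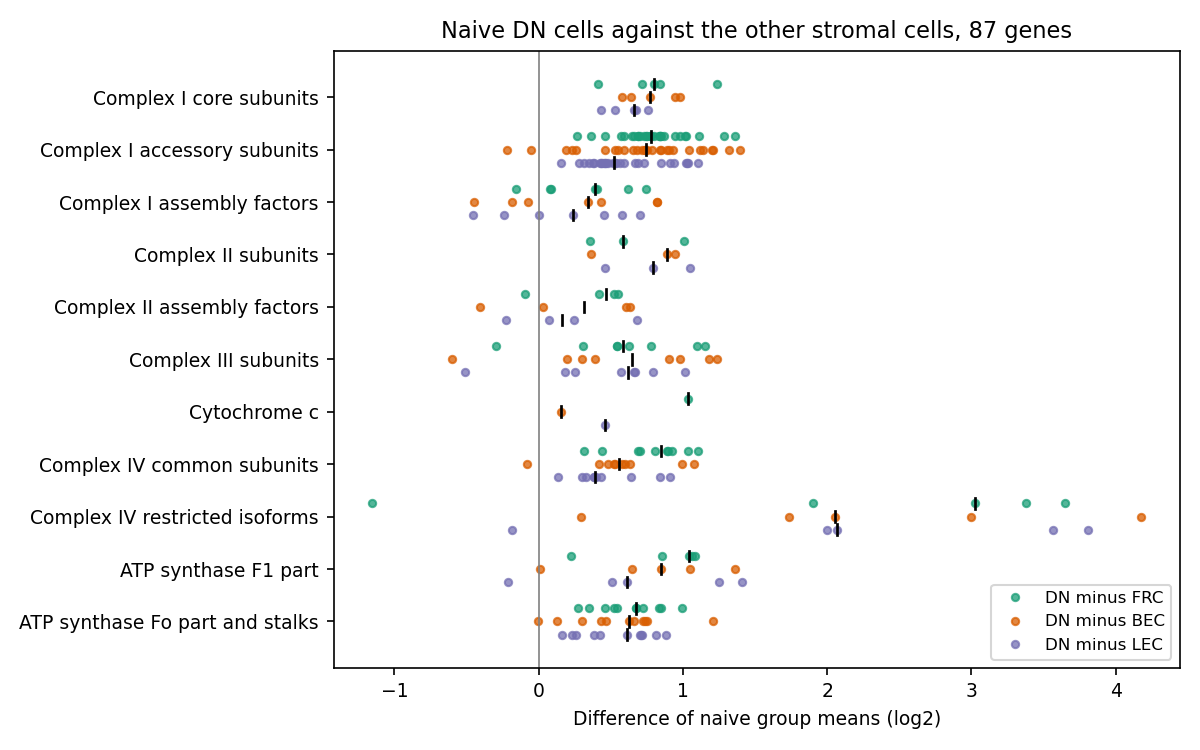
Naive level in DN minus the level in FRCs, BECs or LECs (differences of group means, log2) for each of the 87 tested respiratory genes by role, with black bars at the median of a role. Points to the right of 0 are higher in DN, and 76 of the 87 genes had their highest mean there.

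The replicates of naive DN cells were spread. Relative to the mean of the 4 naive groups, the median of the 87 genes was 0.76, 0.20 and 0.53 in naive DN replicates 1 to 3, and 0.59, 0.54 and 0.56 in the DN replicates from tumor mice. Among the naive replicates of the other cell types the highest value was 0.01, in LECs, and the lowest -0.44, in BEC replicate 3. All 6 DN arrays thus lay above all 9 naive arrays of the other cell types, with replicate 2 nearest to them. Without naive DN replicate 2, 74 genes differed among the cell types and 61 were higher in DN than in each of the other 3, compared with 44 with it. Without naive DN replicate 1, 56 genes differed, 30 were higher in DN than in LECs and 22 were higher than in each of the other 3. Shares of all genes are not given for these counts, so they are not set against the array as a whole.

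**Figure D2:**
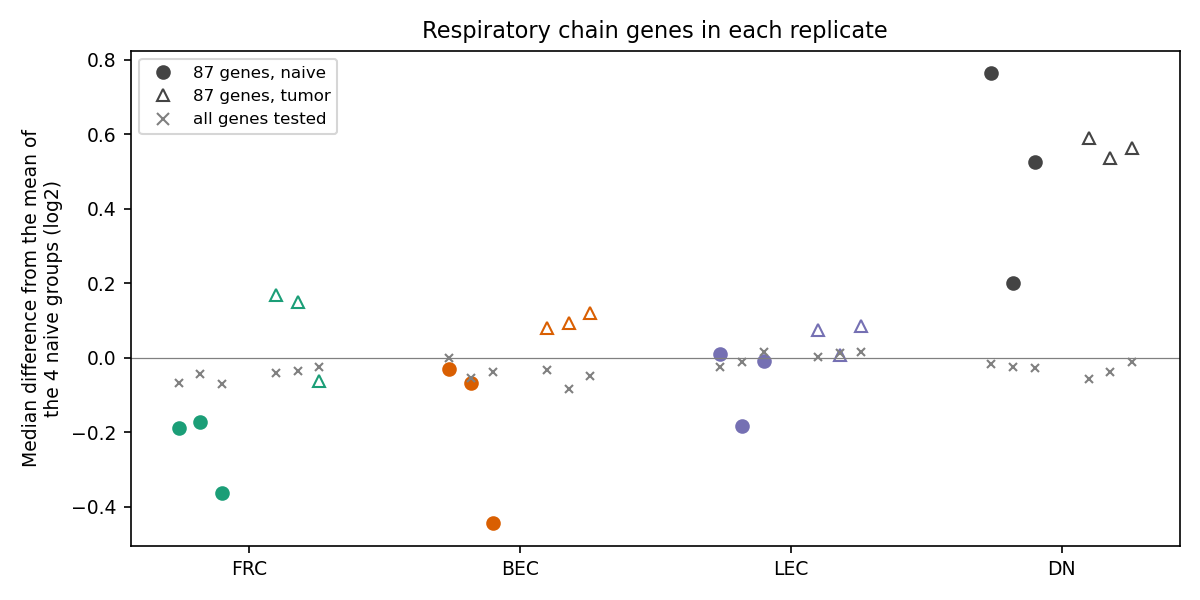
Median over the 87 tested respiratory genes in each of the 24 replicates, as log2 difference from the mean of the 4 naive groups, with crosses for the median of all genes tested. Naive DN replicates sit at 0.76, 0.20 and 0.53, and the tumor replicates of FRCs lie above the naive ones.

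The order held through most of the chain. Of complex I, all 5 tested core subunits were highest in DN, as were 26 of 28 accessory subunits but 4 of 7 assembly factors. Ndufv2, a core subunit with an iron-sulfur cluster, was at 13.82, 13.45 and 13.42 in naive DN and between 12.49 and 12.95 in the 9 other naive samples (adjusted p = 1.89e-05, limma F-test). Ndufs6, a zinc-binding accessory subunit, was at 14.64, 14.30 and 14.45 in DN and between 13.15 and 13.96 elsewhere (adjusted p = 1.08e-05). For neither gene did DN overlap with another cell type. In the order of Ndufs6 levels, DN, LEC, FRC and BEC, neighbours differed only between DN and LEC (LEC minus DN -0.53, adjusted p = 0.00339).

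Complexes II and III followed. Sdhb, the iron-sulfur subunit of complex II, was at 12.19, 11.04 and 11.88 in naive DN and between 10.40 and 11.03 in the others, so that replicate 2 barely exceeded the other cell types. Sdhc, a membrane anchor, was at 12.95, 12.72 and 12.67 in DN and at no more than 12.26 elsewhere. Sdhd, the other anchor, had an adjusted p of 0.181 (F-test). Cyc1, the cytochrome c1 of complex III, was at 13.13, 12.53 and 13.02 in DN and between 11.44 and 11.99 in the others (adjusted p = 3.22e-06), and FRCs, BECs and LECs did not differ from each other beyond their spread. The Rieske protein gene Uqcrfs1 had a probe close to background in all groups, with a range of group means of 0.31.

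Cytochrome c and ATP synthase divided the cell types somewhat differently. Cycs, which carries electrons from complex III to complex IV and also serves in apoptosis, was at 11.35, 11.26 and 11.57 in naive FRCs, below the 11.88 to 12.52 of all other naive samples. FRC minus LEC, its nearest neighbour, was -0.58 (SE 0.16, adjusted p = 0.00773), while BECs and DN did not differ beyond their spread (BEC minus DN -0.15, adjusted p = 0.44). Atp5d, the delta subunit of F1, was at 13.29, 12.94 and 13.40 in DN and between 11.63 and 12.24 elsewhere (adjusted p = 2.42e-06). Of the genes for subunit c, the rotating ring of Fo, Atp5g2 was lowest in FRCs (11.36 against 12.19 in DN) and Atp5g3 lowest in BECs (14.71 against 15.46 in DN). The smallest ranges of group means belonged, beside Uqcrfs1, to the complex I assembly factors Ndufaf2 (0.24, adjusted p = 0.691) and Ndufaf1 (0.34, adjusted p = 0.246).

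The largest differences were in the tissue-restricted isoforms of complex IV. Cox4i2, the isoform of subunit 4 known from lung and linked to oxygen sensing, was at 9.01, 8.67 and 9.34 in naive DN. It was under the background level in all naive FRC and LEC replicates and at 5.59, 7.25 and 5.20 in naive BECs. DN was at least 10.8-fold higher than FRCs and LECs (adjusted p = 7.47e-08, F-test), and the tumor DN samples held 8.56, 8.61 and 8.75. Cox7a1, the striated muscle isoform of subunit 7a, was at 11.50, 10.47 and 10.97 in DN, compared with 7.44 to 7.79 in FRCs, 6.01 to 7.59 in BECs and 6.91 to 8.06 in LECs (adjusted p = 8.14e-07). Its mean in DN was 18.1-fold that in BECs, the lowest group. FRCs, LECs and BECs were not separated for either gene.

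The other muscle isoforms were lowest in naive DN replicate 2, as was Cox7a1, and lay further below their other DN replicates there. Cox8b, a muscle and brown fat isoform of subunit 8, was at 10.19, 7.89 and 9.34 in naive DN, and BEC replicate 2 at 8.19 overlapped with them (adjusted p = 6.82e-04). Cox6a2, the muscle isoform of subunit 6a, was at 8.12, 5.33 and 7.13, so that replicate 2 was under the background level as were all naive FRC, BEC and LEC replicates. The mean of the 3 DN replicates was at least 2.45-fold higher than in each other cell type (adjusted p = 0.013).

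Skeletal muscle markers, 8 genes in all, were lowest in replicate 2 among the naive DN samples, as were the muscle isoforms. The summed level of these markers was 13.57, 9.11 and 13.14 in naive DN and 12.08, 11.31 and 13.24 in DN from tumor mice. It was between 8.31 and 9.84 in the other 18 samples. In DN from tumor mice, Cox6a2 did not have the order of the muscle sum. In naive DN replicate 2 the muscle sum fell within the range of the other cell types. Its single markers Mb and Acta1, at 7.43 and 7.14, were above every sample of FRCs, BECs and LECs, and the other muscle markers were not. Cox4i2 and Cox7a1 were at 8.67 and 10.47 in this replicate, also above every sample of FRCs, BECs and LECs. Cox6a2 was not above background in it. The summed pericyte and smooth muscle list was at 15.91, 16.62 and 16.02 in naive DN, highest in replicate 2. Most of its genes were highest in that replicate, among them Rgs5 at 11.52, 12.80 and 12.53. Only Higd1b, at 10.05, 9.25 and 9.50, Cspg4 and Cnn1 were lowest there. Adipocyte markers summed to between 7.96 and 9.16 in naive DN and between 8.93 and 10.29 in naive BECs. Of these markers only Cidea had a higher mean in naive DN, at 8.08, 7.66 and 6.23 against 5.36 to 5.78 in naive BECs. The part of these cells in the DN levels was not tested.

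**Figure D3:**
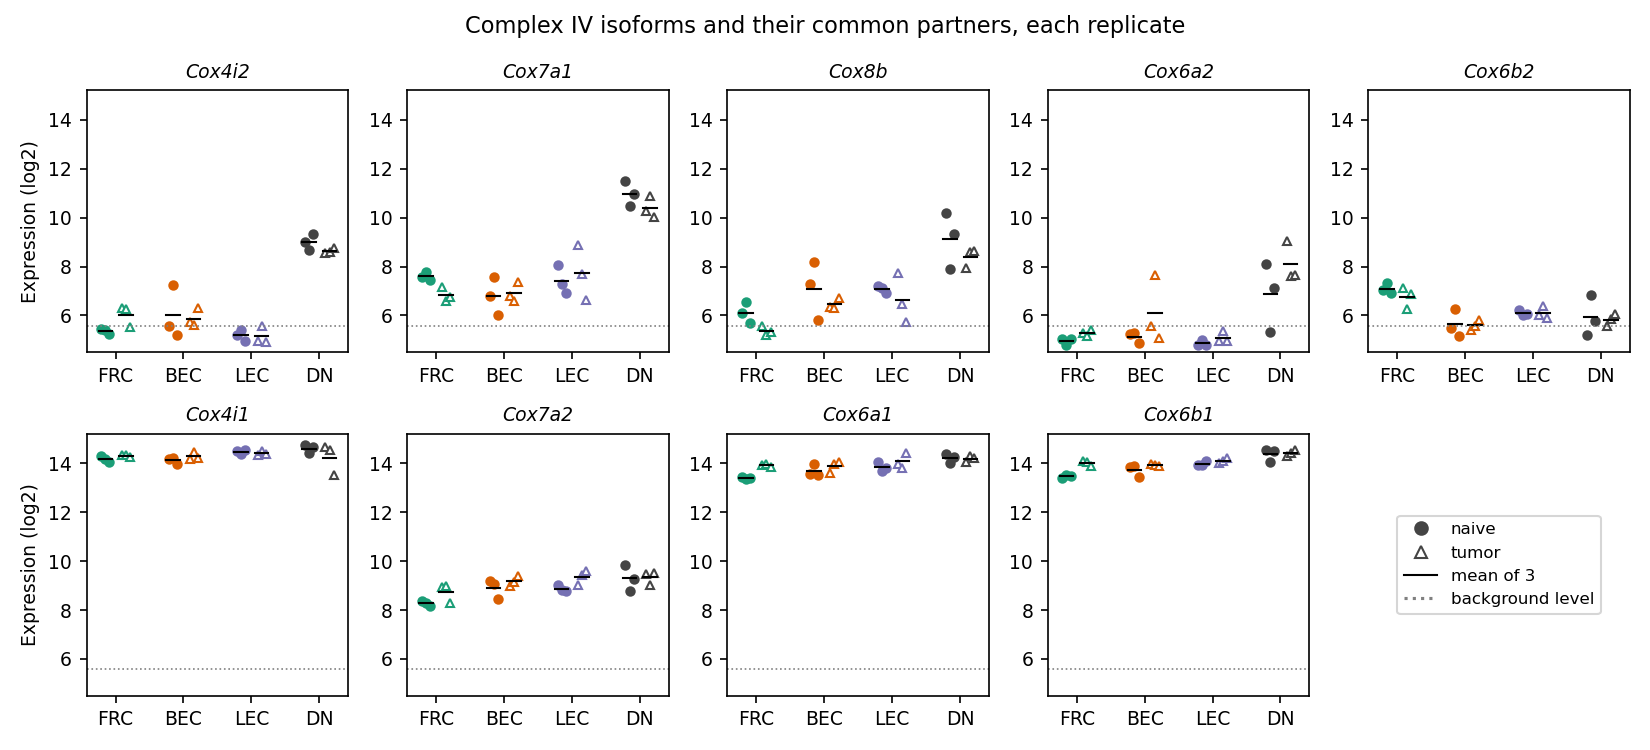
Log2 levels of complex IV isoforms and their widely expressed partners in every naive (filled) and tumor (open) replicate, with group means as bars and the background level of 5.57 as a dotted line. Cox4i2 and Cox7a1 are high in all 6 DN replicates, whereas Cox6a2 is under the background level in naive DN replicate 2.

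Cox6b2, the testis isoform of subunit 6b, had another pattern. It was at 7.04, 7.32 and 6.92 in naive FRCs, 5.50, 6.25 and 5.17 in BECs, 6.24, 6.04 and 6.08 in LECs and 5.19, 6.83 and 5.79 in DN (adjusted p = 0.00382). FRCs lay above all other naive samples, and the remaining cell types were not separated. The widely expressed partners varied less. Cox4i1 group means lay between 14.12 and 14.61 (adjusted p = 0.113), and Cox6a1, Cox6b1, Cox7a2, Cox7b and Ndufa4 were highest in DN, with group means 0.70 to 1.08 log2 units apart.

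In tumor-bearing mice, most respiratory genes lay above their naive level in FRCs and BECs by about 1.2-fold, and few did so singly beyond the test. The median tumor minus naive difference over the 87 genes was 0.32 on the log2 scale (1.25-fold) in FRCs, 0.28 (1.22-fold) in BECs, 0.10 (1.07-fold) in LECs and 0.04 (1.03-fold) in DN. The medians over all genes were -0.02, -0.04, 0.00 and -0.07. A difference above 0 was seen for 79 genes in FRCs (90.8%), 78 in BECs (89.7%), 60 in LECs (69%) and 55 in DN (63.2%). Over all genes the shares above 0 were 47.6%, 46.1%, 49.7% and 42.7%. Under 40 alternative settings the median lay between 0.27 and 0.41 in FRCs, 0.15 and 0.33 in BECs and 0.06 and 0.16 in LECs. It ran from -0.12 to 0.18 in DN, where it was negative without naive DN replicate 2 (-0.12) and with array weights (-0.04). Many of these settings changed only the test or the samples of another cell type and could not move a median, so they do not bear on its stability.

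**Figure D4:**
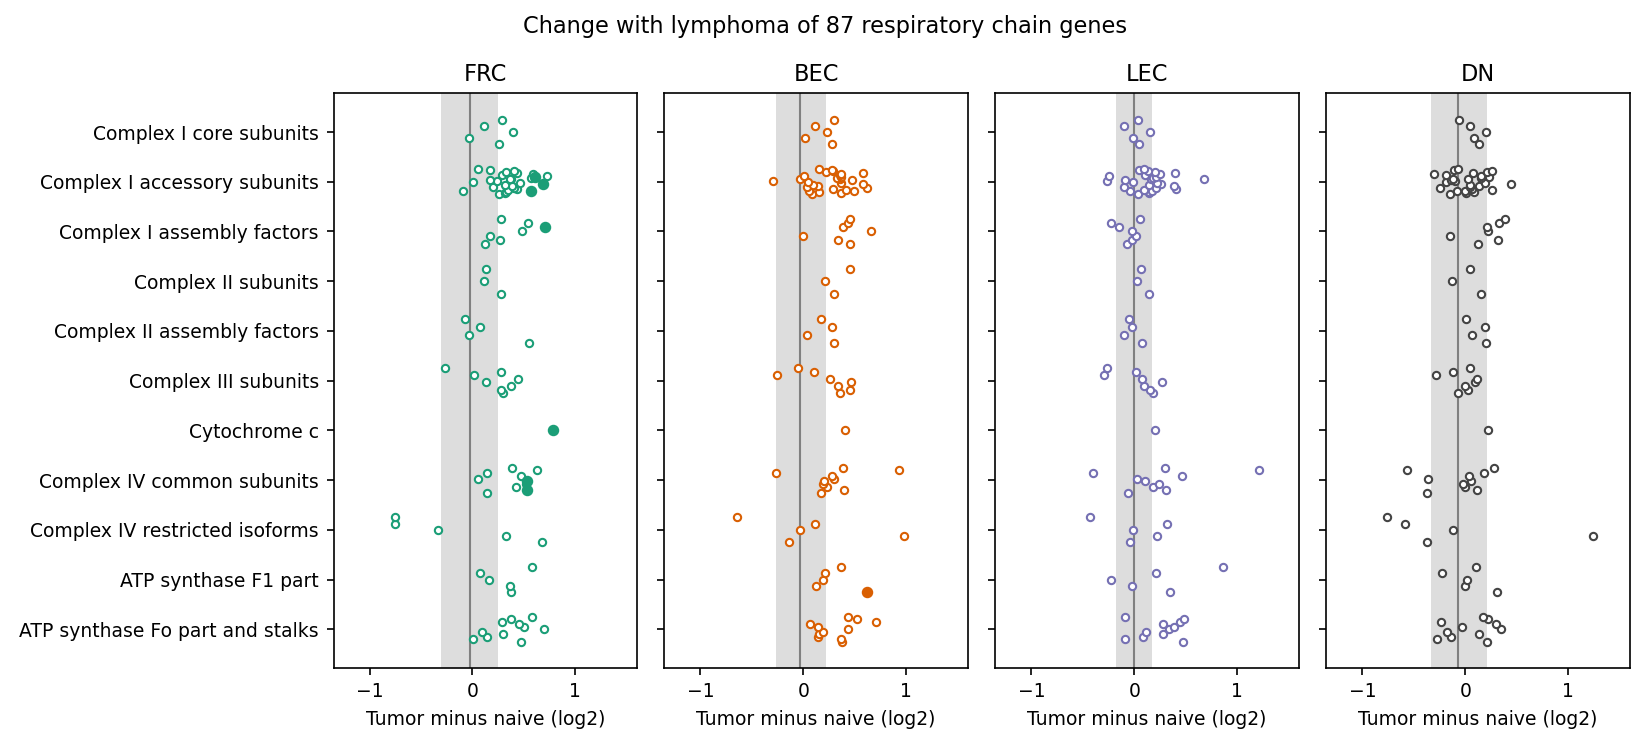
Tumor minus naive difference of group means (log2) for each tested respiratory gene, by role and cell type. The grey band holds the middle 50% of all genes and filled points passed the test. The grey line is the median of all genes. The points shift above 0 in FRCs and BECs, with medians of 0.32 and 0.28, and less in LECs and DN, with medians of 0.10 and 0.04.

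In FRCs, 7 of the 87 genes (8.05%) rose and none fell, where 6.29% of all genes were called higher and 4.05% lower, so the share of rises was close to that among all genes. All 3 tumor replicates lay above all 3 naive ones for 43 respiratory genes (49.4%), compared with 19.3% of all genes, and 28 genes had an unadjusted p under 0.05, all of them higher, beside 13.2% of all genes higher at that p. The largest rise was in Cycs, from 11.35, 11.26 and 11.57 in naive FRCs to 12.24, 12.45 and 11.84 in tumor FRCs. The difference was 0.79 (SE 0.16) or 1.72-fold, with an adjusted p of 0.00374 (limma). Its other kept probes, both much dimmer, gave 0.26 and 0.73.

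The other called genes belong to complexes I and IV. Ndufa9, an accessory subunit close to the coenzyme Q site, rose from 12.12, 12.34 and 12.08 to 12.95, 12.86 and 12.80 (difference 0.69, SE 0.18, adjusted p = 0.0207). Cox6b1, which lies at the contact of complex IV monomers, rose from 13.42, 13.54 and 13.47 to 14.08, 14.05 and 13.89 (0.53, SE 0.14, adjusted p = 0.0228). Ndufaf5, an assembly factor that modifies a core subunit of complex I, rose from 8.31, 8.70 and 8.41 to 9.27, 9.44 and 8.84 (0.71, SE 0.20, adjusted p = 0.026). The naive and tumor values did not overlap for any of these genes, and replicate 3 was the lowest tumor value each time. Cox5a, a matrix-side subunit of complex IV, rose from 12.85, 12.58 and 12.70 to 13.43, 13.22 and 13.07 (0.53, SE 0.16, adjusted p = 0.038). The remaining called genes, Ndufb6 and Ndufa12, are accessory subunits of complex I with differences of 0.61 and 0.57 (adjusted p = 0.040 and 0.0442).

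**Figure D5:**
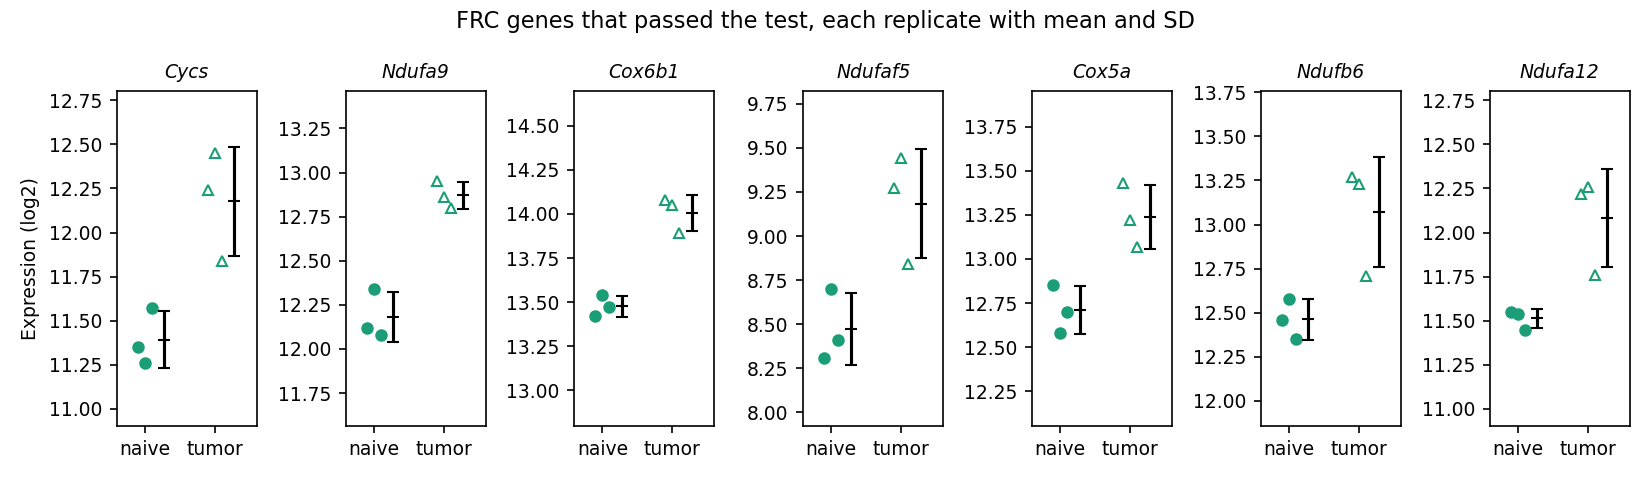
Log2 levels of the 7 respiratory genes that rose in tumor FRCs, in each naive (circles) and tumor (triangles) FRC replicate from 1 to 3 left to right, with the mean and SD of each group. Naive and tumor values do not overlap for any of the 7 genes.

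These calls depended on single arrays. Cycs was called without any 1 of the 24 replicates. It was the only call when FRC naive 1, naive 3, tumor 1 or tumor 2 was left out, and leaving out naive 2 gave 3 (Cycs, Ndufa9 and Ndufaf5). Without tumor replicate 3 there were 11, and without naive DN replicate 2, which enters through the shared estimate of the spread, 14. Over all genes, 1381 were called in FRCs in either direction. That count was 482 without tumor replicate 2, 1419 without tumor replicate 3 and 1978 without naive DN replicate 2. The median of the 87 genes in tumor FRC replicate 3 was 0.15 above the naive mean, compared with 0.42 and 0.40 in replicates 1 and 2.

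Binding motifs of factors known for respiratory genes (NRF1, GABPA of the ETS family, YY1 and the ERR receptors) were looked for in promoters of 250 bases before to 50 after the start from RefSeq on GRCm38.p6, of which 77 of the 92 genes had one by symbol. They were searched on both strands as GCGCATGCG (NRF1), CCGGAAG (ETS/GABPA), AAGATGGCG (YY1) and TCAAGGTCA (an ERR site). The NRF1 letters stood in 11 promoters (14.3%), compared with 1.95% of 27025 genes and 3.44% of 10693 genes tested on the array. The ETS letters stood in 21 (27.3%, compared with 9.93% and 17.1%), the YY1 letters in 8 (10.4%, compared with 1.64% and 2.94%) and the ERR letters in 2 (2.60%, compared with 0.466% and 0.309%). Any of the 4 stood in 35 of the 77 promoters (45.5%, compared with 13.1% and 22.1%). Of the 7 genes that rose in FRCs, 5 held a motif and are shown 5′ to 3′ along the gene, because they carry the calls above, with the motif in capitals.
Cycs (chr6:50566520-50566819, - strand): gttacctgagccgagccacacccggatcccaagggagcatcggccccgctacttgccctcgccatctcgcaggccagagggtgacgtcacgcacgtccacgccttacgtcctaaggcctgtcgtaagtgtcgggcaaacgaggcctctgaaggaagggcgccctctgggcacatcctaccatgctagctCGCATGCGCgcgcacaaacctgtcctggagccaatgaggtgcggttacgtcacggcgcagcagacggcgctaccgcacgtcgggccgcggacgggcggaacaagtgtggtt
Ndufa9 (chr6:126849095-126849394, - strand): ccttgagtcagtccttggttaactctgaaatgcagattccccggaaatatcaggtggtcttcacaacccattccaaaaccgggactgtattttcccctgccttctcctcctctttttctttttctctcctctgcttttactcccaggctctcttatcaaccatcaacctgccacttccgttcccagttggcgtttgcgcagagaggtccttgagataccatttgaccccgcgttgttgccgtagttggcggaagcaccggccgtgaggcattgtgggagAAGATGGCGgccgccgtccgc
Cox6b1 (chr7:30626065-30626364, - strand): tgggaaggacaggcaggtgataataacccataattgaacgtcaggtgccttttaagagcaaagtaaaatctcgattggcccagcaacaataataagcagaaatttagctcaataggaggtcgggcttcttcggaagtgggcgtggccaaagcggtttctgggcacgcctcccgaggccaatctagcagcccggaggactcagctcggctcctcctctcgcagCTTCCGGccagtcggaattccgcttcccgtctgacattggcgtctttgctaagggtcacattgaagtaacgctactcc
Ndufaf5 (chr2:140170396-140170695, + strand): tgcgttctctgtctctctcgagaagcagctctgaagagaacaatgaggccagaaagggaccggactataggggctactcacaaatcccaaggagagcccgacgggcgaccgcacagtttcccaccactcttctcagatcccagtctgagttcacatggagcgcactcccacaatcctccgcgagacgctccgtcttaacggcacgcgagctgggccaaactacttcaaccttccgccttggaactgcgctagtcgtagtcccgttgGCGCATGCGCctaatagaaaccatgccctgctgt
Ndufb6 (chr4:40279372-40279671, - strand): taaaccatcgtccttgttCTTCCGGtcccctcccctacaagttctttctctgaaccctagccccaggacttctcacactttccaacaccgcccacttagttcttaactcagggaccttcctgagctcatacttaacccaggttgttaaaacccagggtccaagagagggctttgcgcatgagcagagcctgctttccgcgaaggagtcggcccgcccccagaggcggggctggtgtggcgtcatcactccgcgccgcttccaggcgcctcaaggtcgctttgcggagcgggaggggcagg
The capitals in Cycs and Ndufaf5 are the NRF1 letters, in Cycs on the reverse strand from position -61 relative to the start and in Ndufaf5 on both strands, overlapping, from positions 16 and 17. Those in Ndufa9 are the YY1 letters at position 29, and those in Cox6b1 and Ndufb6 the ETS letters on the reverse strand at positions -28 and -232. Cox5a and Ndufa12 held none of these letters in this window. A match describes the sequence and does not show binding.

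By role, the differences in FRCs were spread over the chain, and the restricted isoforms were mixed. The median was 0.36 over 28 accessory subunits of complex I (3 called), 0.26 over 5 core subunits, 0.14 over 3 subunits of complex II and 0.02 over its 4 assembly factors, 0.28 over 8 of complex III, 0.45 over 10 widely expressed subunits of complex IV (2 called), 0.36 over 5 of F1 and 0.38 over 11 of Fo and the stalks. Cox6a1 missed the threshold at 0.52 (adjusted p = 0.0572), with all tumor values above all naive ones. Of the complex II subunits, Sdhb was at 0.28, Sdhc at 0.11 and Sdhd at 0.14, with naive and tumor values overlapping in each. The isoforms had a median of -0.34. Cox7a1 was at 7.57, 7.79 and 7.44 in naive and 7.18, 6.61 and 6.76 in tumor FRCs (-0.75, adjusted p = 0.341), and Cox8b, under background in every tumor replicate, was at least 1.46-fold higher in naive than in tumor FRCs. Cox4i2 was under the background level in all naive replicates and at 6.29, 6.28 and 5.54 in tumor FRCs, at least 1.38-fold higher (adjusted p = 0.265).

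Cell cycle genes and markers of other cells moved with the tumor state as well. All 8 cell cycle genes tested were higher in tumor FRCs (median 2.96), and their summed level was 14.07, 14.21 and 13.58 in tumor against 10.75 to 11.25 in naive FRCs, again with replicate 3 lowest. Summed leukocyte markers were at 10.61, 10.32 and 12.92 in tumor and between 9.28 and 10.74 in naive FRCs, highest in tumor replicate 3, where the respiratory genes had risen least. Of 6 myeloid markers 2 were higher in tumor FRCs, with sums of 11.92, 12.07 and 11.61 against 9.95 to 10.78. Of 12 pericyte and smooth muscle markers 3 were higher in tumor FRCs (Mcam by 3.22, Des by 1.92 and Tagln by 1.87), with list sums of 16.49, 16.50 and 16.19 against 15.87 to 16.24. The part of these signals in the respiratory result was not tested.

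In BECs, 1 of the 87 genes (1.15%) rose and none fell, where 3.54% of all genes were called higher and 1.46% lower. The one gene was Atp5a1, the alpha subunit of F1, with 10.07, 9.71 and 9.88 in naive and 10.61, 10.59 and 10.30 in tumor BECs (0.62, SE 0.18, adjusted p = 0.0485). A dimmer kept probe of Atp5a1 gave -0.20 in BECs and -1.03 in FRCs, so the gene's direction is uncertain. The call was lost under 28 of 40 alternative settings, while the count over all 87 genes ran from 0 to 5 when single replicates were left out. It reached 5 without naive DN replicate 2, 4 without naive BEC replicate 2 or tumor DN replicate 3, and 3 without tumor BEC replicate 3. It was 2 without naive DN replicate 1 or tumor DN replicate 1. It stayed at 1 without naive LEC replicate 2 or tumor DN replicate 2, and was 0 otherwise. Calls over all genes in BECs, in either direction, were 667. They were 1021 without naive DN replicate 2 and 1366 without tumor BEC replicate 3.

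For 31 genes (35.6%) all tumor BEC values lay above all naive ones, compared with 12.7% of all genes, and 19 had an unadjusted p under 0.05, all higher, beside 10.5% of all genes higher at that p. The medians by role were 0.29 for accessory subunits of complex I, 0.44 for its assembly factors, 0.30 for complexes II and III, 0.25 for widely expressed subunits of complex IV and 0.37 for Fo and the stalks. Cycs was at 12.28, 12.43 and 12.12 in naive and 12.75, 12.78 and 12.51 in tumor BECs (0.40, adjusted p = 0.153). Cell cycle genes were higher for 7 of 8 in BECs (median 2.55), and summed leukocyte markers were at 13.95, 15.13 and 12.06 in tumor against 12.29 to 12.56 in naive BECs. Of 6 B cell markers 1 was higher in tumor BECs, Vpreb3 by 4.59 (adjusted p = 0.00847, limma). The B cell sums were 12.94, 13.74 and 11.11 in tumor and at most 11.33 in naive BECs. Summed fibroblast markers were at 12.5, 14.97 and 14.28 against 12.27 to 13.46, with none called. Of 12 pericyte and smooth muscle markers Acta2 was higher, by 1.26 (adjusted p = 0.0324). The medians of the respiratory genes above the naive mean were 0.26, 0.28 and 0.27 in the same tumor replicates, and the part of these signals in them was not tested.

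In LECs none of the 87 genes passed the test, where 0.764% of all genes were called higher and 0.135% lower. At an unadjusted p under 0.05, 7 genes were higher and 1 lower, beside 5.05% and 3.69% of all genes, and all tumor values lay above all naive ones for 17 genes (19.5%), compared with 11.2% of all genes. The smallest p belonged to Cox7b, a small subunit of complex IV, with 5.99, 6.02 and 6.41 in naive and 6.84, 6.99 and 8.24 in tumor LECs (1.21, SE 0.35, adjusted p = 0.146). Atp5o, in the stalk of ATP synthase, and Atp5e, the epsilon subunit of F1, followed at 0.49 and 0.86 (adjusted p = 0.256 and 0.258). In LECs the replicate numbers were taken as pairing naive with tumor samples by the check described under processing, although the labels state no pairing. With a block for the number Cox7b passed (adjusted p = 0.029). Of 9 pancreatic acinar genes 3 were higher in tumor LECs, with the signal in tumor replicates 1 and 2 and not in 3. The median of the 87 genes was 0.09 without tumor replicate 1 and 0.16 without tumor replicate 2, and none was called in either case. Cell cycle genes were higher for 5 of 8.

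In DN cells none of the 87 genes passed the test, where 4.71% of all genes were called higher and 2.55% lower. Genes with all tumor values above all naive ones were few, 2 of 87 (2.30%), compared with 7.93% of all genes, and 2 genes had an unadjusted p under 0.05, both higher, beside 11.6% of all genes higher at that p. Ndufa9 was at 13.37, 12.56 and 13.23 in naive and 13.62, 13.36 and 13.51 in tumor DN (0.45, adjusted p = 0.145), and Cox6a2 at 8.12, 5.33 and 7.13 in naive and 9.04, 7.60 and 7.67 in tumor DN (1.24, adjusted p = 0.203). The naive and tumor values of Cox6a2 overlapped. Cox6c, a subunit of complex IV, was lower by value (-0.36, adjusted p = 0.237). Cox4i2, Cox7a1 and Cox8b differed by -0.37, -0.58 and -0.76 (adjusted p from 0.44 to 0.588). Without naive DN replicate 2, Uqcrfs1 was called lower. Beside these values, 7 of 14 blood endothelial and 4 of 6 B cell markers were higher in tumor DN (10 and 5 without naive DN replicate 2), where the blood endothelial sum was 15.41 to 15.49 against 13.51 to 14.75 in naive DN. Cell cycle genes were higher for 6 of 8 in tumor DN (median 2.55) and leukocyte markers for 3 of 6, with the same counts without naive DN replicate 2. No skeletal muscle marker was called in tumor DN, and 3 of 8 were lower without that replicate. The part of these signals in the respiratory values was not tested.

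Whether a tumor change differed among the cell types was tested directly, and no respiratory gene passed (limma F-test, smallest adjusted p = 0.193; 1.26% of all genes passed). At an unadjusted p under 0.05 there were 3 (3.45%), fewer than the 13.8% of all genes. The genes with the smallest p are given as values. Cox7b had differences of 0.63 in FRCs, 0.93 in BECs, 1.21 in LECs and -0.56 in DN, and LEC minus DN was 1.78 (95% interval 0.74 to 2.81, adjusted p = 0.176). For Atp5g3 all tumor values lay above the naive ones in BECs (0.37) and below them in DN (-0.27), with an adjusted p of 0.299. Ndufaf5 was at 0.71 in FRCs and -0.15 in LECs (adjusted p = 0.343). Cycs at 0.79 in FRCs against 0.40, 0.20 and 0.22 in BECs, LECs and DN is therefore not shown to differ between cell types. The median of FRC minus DN over the 87 genes was 0.28, and 0.03 over all genes.

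Of the genes encoded in mitochondrial DNA, none of the 7 measured, which included ND1, CYTB, COX2 and ATP6, passed in any cell type. Their median difference was -0.24 in FRCs, 0.41 in BECs, 0.05 in LECs and -0.35 in DN, beside 0.32, 0.28, 0.10 and 0.04 for the nuclear genes, and whether these medians differ was not tested. Among naive mice their mean level was highest in DN (12.71 against 11.84 to 12.11). These probes share polycistronic transcripts and are not independent of one another.

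Of 72 genes of the mitochondrial ribosome, 16 rose in FRCs and none fell (median 0.41), beside the 6.29% of all genes that rose there, among them Mrps2 at 1.27 (adjusted p = 6.43e-04), Mrps18b at 1.24 and Mrpl22 at 0.83. In BECs 4 rose (median 0.41), in LECs none and in DN 2, where 3.54%, 0.764% and 4.71% of all genes rose. Without naive DN replicate 2 none of the list was higher in DN and 1 was lower. Of 31 assembly factors outside the rule, Tmem70, which serves ATP synthase, Cox19, Cox10 and Pet100 rose in FRCs. Of 7 carriers and channels, 2 rose in FRCs and 1 in BECs. Vdac1, the main outer membrane channel, rose in FRCs (0.57) and BECs (0.66), Vdac3 in FRCs, and Coq7, of coenzyme Q synthesis, in both FRCs (0.75) and BECs (1.11). Of 10 genes of coenzyme Q synthesis, 1 was lower in DN without naive DN replicate 2 and none with it.

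Of 23 regulators, Tfam, which packages and transcribes mitochondrial DNA, and Slirp, which stabilizes its transcripts, rose in FRCs by 0.63 and 0.74. Ppargc1a, the coactivator PGC-1alpha, fell by 1.86 (adjusted p = 0.0281), and Polg2, the accessory subunit of the mitochondrial DNA polymerase, fell by 1.18 in FRCs and by 0.85 in BECs. Lrpprc, the partner of Slirp, rose in BECs by 0.75. In DN the muscle coactivator Perm1 fell by 1.01 (adjusted p = 0.0378), a call that was lost without naive DN replicate 2 (adjusted p = 0.0704).

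Of 16 citric acid cycle genes, citrate synthase Cs rose in FRCs (0.58) and BECs (0.66) and Suclg1 in BECs (0.80). Of 20 genes of glycolysis and pyruvate use, Pgk1, Pgam1, Pkm, Gapdh and Pfkl rose in FRCs by 0.92 to 1.25, and Pgk1, Pgam1 and Pkm in BECs by 0.74 to 0.92. In DN Pdk4, which inhibits pyruvate dehydrogenase, fell by 1.28 (adjusted p = 0.0248), and by 1.71 without naive DN replicate 2 (adjusted p = 0.00148). With that array left out, 2 citric acid cycle genes were lower in DN, compared with 0 in the main fit. The glycolysis list then had 3 lower and 1 higher in DN, compared with 1 and 0. None of these lists had a call in LECs.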

How the data were processed

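Expression was measured on Illumina mouse bead arrays in 8 groups of 3 biological replicates with 2 strips each, grouped by the labels for cell type and state. The authors deposited a table of log2 values of 45281 probes on 48 strips, of which 122 cells were empty, and background correction and normalization of it are not given in the sources used here. Strip medians of these values lay between 5.38 and 5.64, so they were near but not fully equal. The authors also deposited scanner files of bead intensities, with 863780 to 1044181 beads on a strip and a median of 18 to 22 beads for a bead code. Since intensities reach below 0, background subtraction had taken place before deposit. These files served for alternatives only, after 45156 probes were matched to bead codes whose intensities followed theirs across the strips.

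Quantile normalization was applied to the log2 values of all 48 strips, and both strips of a replicate were then averaged. The background level was set from all normalized values, probes with 1 gene symbol and at least 1 group mean above it were kept, and the brightest kept probe stood for a gene, which gave 13344 genes. For a group with every replicate under that level, folds are lower bounds, computed against the level itself. One linear model of the 8 group means (limma 3.58.1 under R 4.3.3, empirical Bayes, 16 residual and 3.19 prior degrees of freedom) gave all differences and F-tests, with Benjamini-Hochberg adjustment over all genes and a threshold of 0.05. The authors' test for the arrays is not given in the sources used here, so this model was chosen for them, with the unpaired test that the general statistics of the methods name (the methods' t-test) as an alternative. An exact permutation test of 3 against 3 cannot go below 0.1. The number of arrays limits the precision. The fit and the link of bead codes were tested on simulated data.

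The numbers of replicates were taken as pairing naive with tumor samples only where deviations of same-numbered samples correlated above 0.1 in all 3 pairs, as was the case for LECs alone (0.20, 0.23 and 0.15).

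Members, roles and gene lists were chosen with earlier results of these data known, and no list was tested as a set. Genes are named where they are restricted isoforms, their partners, subunit c genes, cytochromes or complex II subunits, where they are among the 5 with the smallest adjusted p of a tumor comparison (3 where none passed), the 6 with the smallest p or the 3 with the smallest range of naive levels, or the 4 with the smallest p for a difference between cell types, and up to 3 of each other list. Ndufb6, Ndufa12, Sdhaf2 and further genes of other lists were named after their values were seen. Alternatives changed normalization, background correction, strips, filter, probe choice, samples, test, variance model and replicates, and those for members higher in DN were added after seeing the data. Promoter sequences and starts are those of RefSeq on GRCm38.p6. Python 3.11.15, numpy 2.4.6, pandas 2.3.3, scikit-learn 1.9.0 and matplotlib 3.10.9 were used beside R.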

Additional observations from a re-analysis of the deposited data

How the results depend on the processing

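Among 36 alternative fits the naive differences of Cox4i2, Cox7a1, Atp5d, Cyc1, Ndufs6 and Ndufv2 were called in each. Leaving out single replicates gave 56 to 74 genes that differed among cell types, 48 to 71 higher in DN than in FRCs, 46 to 69 than in BECs, 30 to 63 than in LECs and 22 to 61 than in all 3, and the lowest counts against LECs (30) and against all 3 (22) came without naive DN replicate 1. Shares of all genes are not given for these counts. The tumor counts changed more. The count of higher genes in FRCs, 7, was 11 with bead files under either background setting, in FRCs fitted alone (with Cox7a1 lower, 1 gene) and with a trended robust prior, 2 with strip 1 alone, 3 with strip 2 alone and 46 with array weights. The count in BECs, 1, was 3 and 6 with bead files with and without background correction, 4 with all 48 strips, 3 with the trended prior, 35 (and 2 lower) with array weights, and 0 with strip 2, without a filter, in BECs alone and by the methods' t-test after adjustment. Unadjusted, that t-test gave 34 higher and 1 lower (Cox7a1) in FRCs, 21 in BECs, 9 in LECs and 1 in DN. In LECs strip 2 gave 1 and array weights 3, in DN strip 1 gave 1 (Atp5k), and 8 changes differed among cell types with array weights, whose estimation stopped before its tolerance. Calls over all genes, in either direction, also moved in FRCs, from 1381 to 5200 with array weights and 3976 by the unadjusted t-test. They were 1131 with strip 1 alone, 938 with strip 2 alone, 2451 in FRCs fitted alone and 1426 with the trended prior. With bead files they were 1503 of 12069 genes with background correction and 1598 of 12416 without it. In BECs they moved from 667 to 3949 with array weights and 2206 by the unadjusted t-test. With bead files with and without background correction they were 736 and 794 in BECs, and 1184 with all 48 strips. They were 707 with the trended prior, 445 with strip 2, 614 without a filter and 130 in BECs alone. The unadjusted t-test called 1602 genes in LECs and 1178 in DN. In LECs strip 2 called 98 and array weights 530, and in DN strip 1 called 785. The causes were not tested. Leaving out single replicates gave 1 to 14 higher genes in FRCs, 0 to 5 in BECs, 0 in LECs and DN, and 0 lower genes in FRCs, BECs and LECs and 0 to 1 in DN. The call of Cycs was lost under 2 of 40 settings, the mean of all its probes (adjusted p = 0.0544) and the adjusted t-test (0.101).

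With a block for the replicate number, 4 genes were higher in FRCs, 1 in BECs (Cox7b in place of Atp5a1), 1 in LECs and 0 in DN, and no difference among cell types was called. Calls over all genes with the block, in either direction, were 1003 in FRCs, 509 in BECs, 84 in LECs and 707 in DN. The labels state no pairing in any cell type, and outside LECs the check was not passed, with correlations of deviations between -0.22 and 0.25. Naive levels could not be fitted with the block, since the block was set within each cell type. Among 38 further kept probes of 29 genes, 31 had the sign of the main probe in FRCs, 29 in BECs, 26 in LECs and 25 in DN. Probes near the background level, as for Uqcrfs1 and for Cox4i2 in naive FRCs and LECs, give compressed differences.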

Other observations

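A few respiratory genes ranked the naive cell types in another order, and they are named here after their values were seen. Ndufa8, an accessory subunit of complex I, was highest in BECs, at 13.37, 13.41 and 13.11, with 13.34, 12.71 and 13.20 in DN, 12.52 to 12.57 in LECs and 12.20 to 12.30 in FRCs (adjusted p = 3.19e-05, limma F-test). BECs and DN overlapped, and its other probe gave the same order of means. Ndufaf3, a complex I assembly factor, was also highest in BECs, with means of 7.84 there, 7.39 in DN, 7.15 in LECs and 6.77 in FRCs (adjusted p = 0.00923). Ndufaf5, 1 of the genes that rose in tumor FRCs, was highest in LECs, with a mean of 9.32 against 8.47 in naive FRCs. Its tumor level in FRCs thus reached 9.27, 9.44 and 8.84, within the range of the LEC samples of both states (9.07 to 9.45) for 2 of the 3 replicates.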
